A study of Homo sapiens with 6 samples.

Results

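The genes described here are 60 cell cycle and mitosis genes, chosen by name as cyclins, cyclin-dependent kinases and their inhibitors, E2F and RB family members, mitotic kinases, kinesins and proliferation markers. All 60 were present among the 20030 genes of the deposited table. The cells were 786-O, an established human line of ccRCC (clear cell renal cell carcinoma). The knockdown group (shYB1) carried a lentivirally delivered small hairpin RNA (shRNA) against YB1, the product of the gene YBX1, and the control group (vector) carried a scrambled shRNA. Both groups were stable lines harvested after puromycin selection, the labels give passages 16 to 18 for both, and each group had 3 libraries. The series text mentions more than one hairpin, but the labels give a single shYB1 group, so differences between hairpins could not be examined. Nothing in the labels places the libraries of a group in separate cultures, and the p-values below therefore measure the spread between these libraries, which may be technical. Values are FPKM (fragments per kilobase, scaled to the mapped fragments of each library), a unit per length that allows levels of different genes to be compared.

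The cell cycle is driven by cyclin-dependent kinases (CDKs), which are active only when bound to a cyclin. Cyclin D with CDK4 or CDK6 and then cyclin E with CDK2 phosphorylate the RB family of pocket proteins, which releases E2F factors and turns on the genes of DNA synthesis. Cyclin A and cyclin B with CDK1 carry the cell into mitosis, where kinases, kinesins and the spindle checkpoint move and separate the chromosomes. Many genes of the late cell cycle carry CCAAT boxes, bound by NF-Y, and a cell cycle genes homology region (CHR), bound by the MuvB complex. YB1 is a cold shock domain protein that was named for binding the Y-box, a promoter element with an inverted CCAAT, and that also binds RNA. 786-O cells lack functional VHL, and the loss of VHL stabilises the hypoxia factor HIF2A, the product of EPAS1.

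Promoter letters are shown first because the CCAAT box is the element that gave YB1 its name and because genes that hold the same letters were called differently here. Each sequence is the 150 bases before the RefSeq start in GRCh38.p14, written 5′ to 3′ on the strand of the gene, and capitals mark CCAAT or its complement ATTGG and the CHR letters TTTGAA or the complement TTCAAA. The set holds 4 mitotic genes (CCNB1, CCNB2, CDC20 and PLK1), the E2F family member with the largest change (E2F7), a member that fell (CDKN1B) and a member that rose without either element (CDK4), and it was picked with the expression values known. The regions are chr5:69167000-69167149 (plus strand) for CCNB1, chr15:59104996-59105145 (plus) for CCNB2, chr1:43358831-43358980 (plus) for CDC20 and chr16:23678739-23678888 (plus) for PLK1. Those of the remaining genes are chr12:77065570-77065719 (minus strand) for E2F7, chr12:12717218-12717367 (plus) for CDKN1B and chr12:57752311-57752460 (minus) for CDK4.
CCNB1: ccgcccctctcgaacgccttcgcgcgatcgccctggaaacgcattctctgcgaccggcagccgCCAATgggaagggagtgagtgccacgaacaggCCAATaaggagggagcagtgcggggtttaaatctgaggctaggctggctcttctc
CCNB2: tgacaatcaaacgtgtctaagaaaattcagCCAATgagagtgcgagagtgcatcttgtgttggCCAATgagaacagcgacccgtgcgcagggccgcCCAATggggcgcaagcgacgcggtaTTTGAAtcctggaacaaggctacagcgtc
CDC20: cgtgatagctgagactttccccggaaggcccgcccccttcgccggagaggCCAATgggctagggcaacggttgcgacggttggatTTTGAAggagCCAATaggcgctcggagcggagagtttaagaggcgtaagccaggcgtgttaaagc
PLK1: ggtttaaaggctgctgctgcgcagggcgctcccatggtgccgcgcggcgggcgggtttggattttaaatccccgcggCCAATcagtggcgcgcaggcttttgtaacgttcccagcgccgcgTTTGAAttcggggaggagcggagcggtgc
E2F7: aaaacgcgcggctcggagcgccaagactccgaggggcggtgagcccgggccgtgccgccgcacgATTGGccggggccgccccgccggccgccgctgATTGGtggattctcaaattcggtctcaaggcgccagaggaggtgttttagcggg
CDKN1B: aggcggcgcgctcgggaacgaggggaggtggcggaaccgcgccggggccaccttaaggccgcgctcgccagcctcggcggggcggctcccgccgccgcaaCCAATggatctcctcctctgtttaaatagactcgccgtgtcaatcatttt
CDK4: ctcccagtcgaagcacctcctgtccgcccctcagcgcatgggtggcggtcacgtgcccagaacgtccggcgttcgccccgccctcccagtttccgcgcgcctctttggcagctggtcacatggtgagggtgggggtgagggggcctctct
CCNB1 held CCAAT boxes whose first bases lay at −87 and −55 from the start, and CCNB2 held boxes at −120, −87 and −54 with a CHR at −29. PLK1 held a single CCAAT box at −73 and a CHR at −29. E2F7 held ATTGG at −86 and −54 within the printed stretch. CDK4 held neither set of letters.

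The targeted gene was lower in every shYB1 library. YBX1 was measured at 366, 373 and 378 FPKM in vector replicates 1 to 3 and at 167, 166 and 173 FPKM in shYB1 replicates 1 to 3, a log2 fold change of −1.14 ± 0.031 (SE; limma adjusted p = 1.53e-08). All 7 genes listed as markers of the renal line were detected, which were PAX8, PAX2, CDH6, KRT8, KRT18, VIM and EPAS1. PAX8 was at 77.3 FPKM over the 6 libraries. Of the 7, 1 was higher and 1 lower, with a median log2 fold change of 0.038. CDH6, a kidney cadherin, fell by 0.54 on the log2 scale (limma adjusted p = 3.92e-06). PAX2, a renal transcription factor, rose by 0.15 (limma adjusted p = 0.0392), a call that median-of-ratios scaling did not give. With that scaling 0 were higher and 2 lower, CDH6 and EPAS1, the latter at −0.14 (limma adjusted p = 0.00859). All 9 leukocyte, endothelial and fibroblast markers were below the expression filter. Their summed level lay between 0.759 and 1.03 FPKM in vector and between 0.764 and 0.887 FPKM in shYB1, with CD3E and CDH5 among those listed at 0. FPKM totals over the table ranged from 282736 to 295887, and the files hold no counts, so the depth behind each value is unknown.

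Small differences between shYB1 and vector were measured in the cell cycle genes, and most of the calls were upward. Groups were compared with limma on log2(FPKM + 0.1), a scale that understates the change of low genes, with p-values adjusted by Benjamini-Hochberg over the 10439 genes whose mean over the libraries was 1 FPKM or more. Of the 60 members, 58 passed this filter. At an adjusted p under 0.05, 20 of the 58 were higher in shYB1, which is 34.5% against 18.7% of all genes tested. CDKN1B and CDKN2C were lower, which is 3.45% of the members tested against 6.93% of all genes tested. The share over all genes depends on their level. With the filter at a mean of 5 FPKM instead, 20 of 50 members were higher, beside 26.0% of all genes that passed it, and 3 were lower, beside 9.53%. The log2 fold change was positive for 44 of 58 (75.9%), against 64.1% of all genes tested, with a median of 0.092 beside 0.055 over all genes tested. Higher members rose by 10.3% to 30.7% in mean FPKM. A fold of 2 at an unadjusted p under 0.05 was reached by 0 of the 58 members in limma, and by 0.22% of all genes tested. An unadjusted p under 0.05 without the fold criterion was reached by 30 members (51.7%), against 39.0% of all genes tested. In bulk RNA, a shift in the share of cells in a phase and a shift in RNA per cell cannot be told apart.

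The balance of the calls depended on the scaling. With the FPKM rescaled by median-of-ratios size factors, 15 members were higher, all of them among the 20, beside 11.2% of all genes tested. The same scaling gave 6 lower members, beside 12.2% of all genes, which were CDKN1B and CDKN2C with CCNG2, TTK, KIF20A and TOP2A. The share of member calls that were higher was 90.9% as deposited and 71.4% after rescaling, and over all genes it was 73.0% and 47.9%. The median log2 fold change of the members was 0.036 after rescaling, beside −0.00062 over all genes, and it was positive for 36 of 58 members, against 49.8% of all genes. E2F1, PKMYT1, CENPF, KIF11 and PRC1 were the 5 higher members whose call was lost. The libraries of the 2 groups did not overlap for 28 of the 58 members with shYB1 above, against 30.1% of all genes tested, and for 6 members with shYB1 below, against 12.5%.

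**Figure D1:**
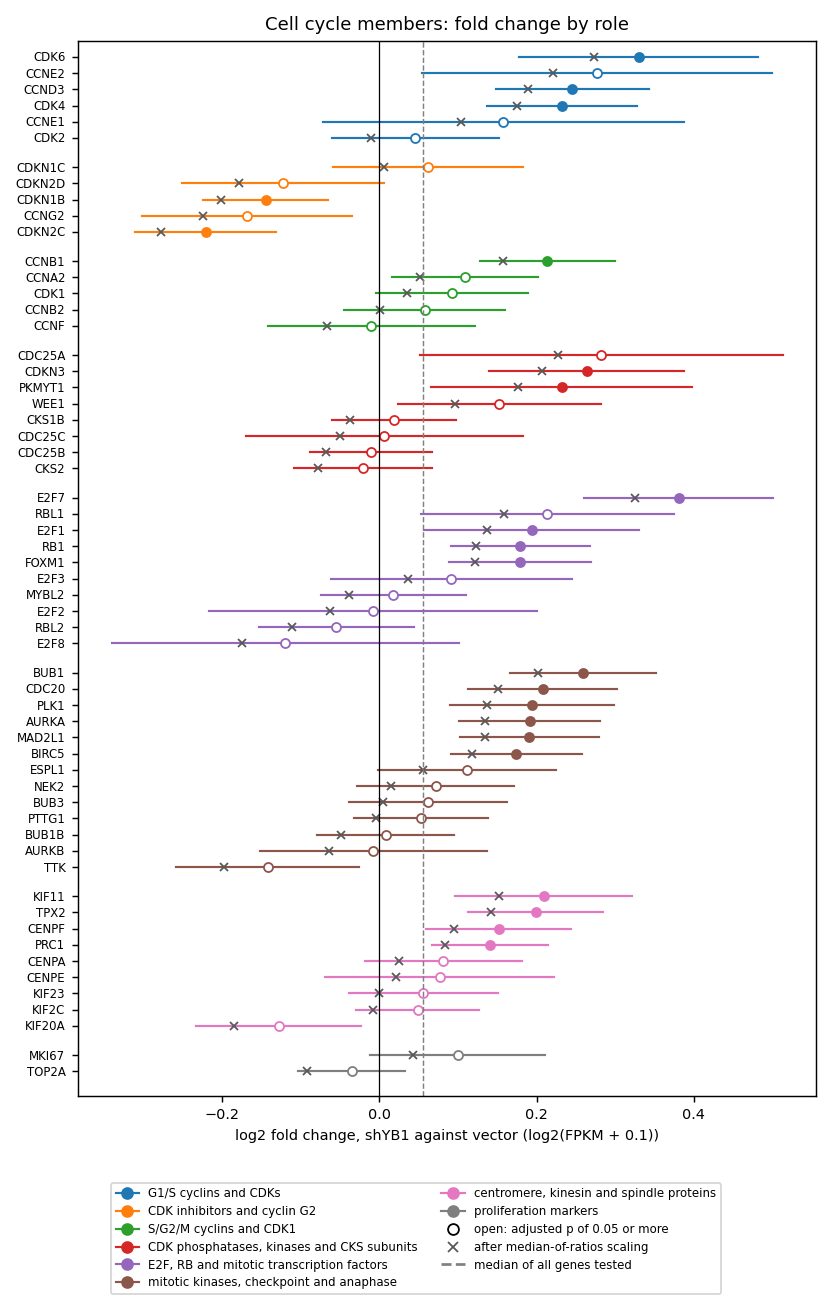
Log2 fold change of shYB1 against vector for the 58 members tested, grouped by role, with 95% confidence intervals from limma. Filled points passed an adjusted p of 0.05, crosses give the value under median-of-ratios scaling, and the dashed line is the median of all genes at 0.055. Among the CDK inhibitors and cyclin G2, CDKN1B and CDKN2C lie below 0 with filled points, while 20 filled points of the other roles lie above 0.

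The cyclins and kinases of the G1 phase held some of the larger changes. Of 7 members of this group, 6 were tested and 3 rose (CCND3, CDK4 and CDK6), 0 fell, and the median log2 fold change was 0.24. Over all genes tested 18.7% rose and 6.93% fell, and the median was 0.055. The same 3 members were higher under median-of-ratios scaling, beside 11.2% of all genes tested. CDK6 (chr7:92604921-92836594, minus strand, GENCODE 29 on GRCh38), a cyclin D-dependent kinase, was at 9.68, 10.7 and 10.2 FPKM in vector and at 14.2, 12.1 and 12.2 FPKM in shYB1, in the order of the replicates. Every shYB1 library lay above every vector library, and replicate 1 was the highest of the shYB1 libraries. The log2 fold change of CDK6 was 0.33 ± 0.068 (SE; limma adjusted p = 0.00646). Its partner kinase CDK4 rose from 57.1 ± 3.21 to 67.1 ± 1.38 FPKM (SD, n = 3 each; log2 fold change 0.23, limma adjusted p = 0.00363). CDK4 was 5.63 times as abundant as CDK6 in vector and 5.25 times in shYB1. Of the exon bases of CDK4, 43.2% overlap TSPAN31 on the opposite strand, and whether counting used strand is not given in the sources used here. TSPAN31 itself had a log2 fold change of −0.11 and was not called.

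CCND3, a D-type cyclin, rose from 11.1 ± 0.304 to 13.2 ± 0.108 FPKM (log2 fold change 0.25, limma adjusted p = 0.00299). CCND2, another D-type cyclin, lay below the filter, at 0, 0 and 0.0074 FPKM in vector and 0, 0 and 0.015 FPKM in shYB1. The E-type cyclins did not pass the test. CCNE1 was at 2.10 ± 0.218 and 2.36 ± 0.262 FPKM, and CCNE2 at 2.79 ± 0.415 and 3.37 ± 0.140 FPKM (log2 fold change 0.28, limma adjusted p = 0.0671). Without vector replicate 2, the highest of its group, CCNE2 had a log2 fold change of 0.38 and a limma adjusted p of 0.0159. Of the exon bases of CCNE2, 37.0% overlap INTS8 on the opposite strand. INTS8 was at 6.98 FPKM over the 6 libraries, had a log2 fold change of 0.098 and was not called. CDK2, the kinase that cyclin E activates, was at 18.5 ± 0.481 and 19.1 ± 1.01 FPKM, with a 95% interval of the log2 difference from −0.06 to 0.15.

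Inhibitors of these kinases held the lower members. Of 6 members of this group 5 were tested, 2 fell and 0 rose, and the median log2 fold change was −0.14. By comparison, 6.93% of all genes tested fell and 18.7% rose. Under median-of-ratios scaling 3 of the 5 were lower, beside 12.2% of all genes tested. CDKN2C (p18, chr1:50960745-50974633, plus strand), an INK4 inhibitor that binds CDK4 and CDK6, was at 53.2, 50.1 and 54.8 FPKM in vector and 44.97, 44.3 and 46.3 FPKM in shYB1. The groups were separated by a gap, with the highest shYB1 library below the lowest vector library. CDKN2C had a log2 fold change of −0.22 ± 0.040 (SE; limma adjusted p = 0.00336). CDKN1B (p27), which binds cyclin E with CDK2, fell from 36.5 ± 1.01 to 32.99 ± 0.195 FPKM (log2 fold change −0.14, limma adjusted p = 0.0145). Without vector replicate 2, the highest library, CDKN1B had a log2 fold change of −0.13 and a limma adjusted p of 0.0533.

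The other inhibitors did not pass the test. CDKN2D (p19), another INK4 inhibitor, was at 11.5 ± 0.621 FPKM in vector and 10.5 ± 0.570 FPKM in shYB1 (limma adjusted p = 0.147). CDKN1C (p57), an imprinted inhibitor of the same family as p27, was at 15.9 ± 0.961 and 16.6 ± 0.694 FPKM. CCNG2, an unconventional cyclin linked to cell cycle exit, was at 8.44 ± 0.477 and 7.50 ± 0.364 FPKM, with all shYB1 libraries below all vector libraries (log2 fold change −0.17, limma adjusted p = 0.0638). After median-of-ratios scaling CCNG2 passed the test at −0.22 (limma adjusted p = 0.0276), and without vector replicate 2 it passed at −0.21 (limma adjusted p = 0.0406). CDKN2B (p15) lay below the filter, at 0.054, 0.023 and 0.036 FPKM in vector and 0, 0.056 and 0 FPKM in shYB1. Set against its inhibitor in each library, CDK4 was 1.08 ± 0.0148 times the level of CDKN2C in vector and 1.48 ± 0.0111 times in shYB1. The ratio of CDK6 to CDKN2C was 0.194 ± 0.0169 in vector and 0.284 ± 0.0281 in shYB1. Both ratios join genes that moved apart and were picked with those values known, so they are given as a description.

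**Figure D2:**
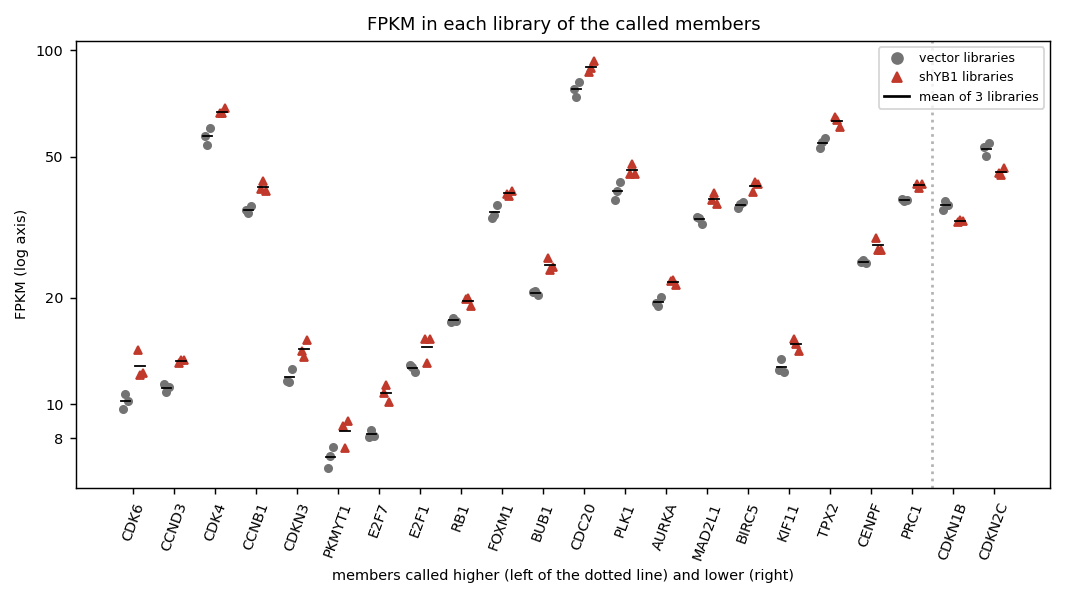
FPKM in each of the 6 libraries, on a log axis, for the 22 members that passed the test, with vector and shYB1 libraries in separate colours. The shYB1 points lie above the vector points in 19 of the 20 higher members and overlap in PKMYT1, and they lie below in CDKN1B and CDKN2C.

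Among the cyclins of S phase, G2 and mitosis, CCNB1 was the only one of 5 members that passed the test. A count of 1 in 5 is close to the 18.7% of all genes tested that were higher. CCNB1 (cyclin B1, chr5:69167010-69178245, plus strand) was at 35.2, 34.7 and 36.2 FPKM in vector and at 40.4, 42.8 and 39.9 FPKM in shYB1. No library of one group reached the range of the other, and the log2 fold change was 0.21 ± 0.039 (SE; limma adjusted p = 0.00325). CCNB2, the second B-type cyclin, was at 40.03 ± 1.42 and 41.7 ± 2.28 FPKM, with overlapping groups (log2 fold change 0.06, limma adjusted p = 0.388). The ratio of CCNB1 to CCNB2 was 0.884 ± 0.0374 in vector and 0.985 ± 0.0200 in shYB1. CCNA2 (cyclin A2) was at 24.0 ± 0.0423 and 25.9 ± 1.17 FPKM and did not pass (limma adjusted p = 0.081), and it passed without shYB1 replicate 3 at a log2 fold change of 0.15 (limma adjusted p = 0.0364). CDK1, the kinase that A- and B-type cyclins activate, was at 22.0 ± 1.05 and 23.4 ± 0.135 FPKM (limma adjusted p = 0.144). CCNF, an F-box protein that limits other cell cycle proteins, was at 9.70 ± 0.467 and 9.63 ± 0.592 FPKM.

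Regulators of CDK phosphorylation held 2 higher and 0 lower of 8 members, or 25.0% higher against 18.7% of all genes tested. CDKN3 (chr14:54396849-54420218, plus strand), a phosphatase that removes the activating phosphate of CDKs, was at 11.6, 11.5 and 12.5 FPKM in vector and 14.1, 13.6 and 15.2 FPKM in shYB1. Its groups did not overlap, and the log2 fold change was 0.26 ± 0.056 (SE; limma adjusted p = 0.00726). PKMYT1, a membrane-bound kinase that holds CDK1 inactive, was at 7.10 ± 0.482 and 8.37 ± 0.745 FPKM (log2 fold change 0.23, limma adjusted p = 0.044). Its shYB1 replicate 2 lay below vector replicate 3, and the call was made in 7 of 13 alternative settings. Its limma adjusted p was 0.146 without vector replicate 1, 0.09 without vector replicate 2, 0.129 without shYB1 replicate 1 and 0.134 without shYB1 replicate 3. PKMYT1 shares 24.5% of its exon bases with PAQR4 on the opposite strand, and PAQR4 had a log2 fold change of 0.22 (limma adjusted p = 0.0786).

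WEE1, the nuclear kinase with the same substrate, was at 9.24 ± 0.0790 and 10.3 ± 0.754 FPKM (limma adjusted p = 0.0786). The CDC25 phosphatases, which undo the action of WEE1 and PKMYT1, did not pass the test. CDC25A was at 2.08 ± 0.0156 and 2.57 ± 0.379 FPKM (log2 fold change 0.28, limma adjusted p = 0.0706), CDC25B at 48.9 ± 1.15 and 48.6 ± 1.07 FPKM, and CDC25C at 6.09 ± 0.232 and 6.14 ± 0.710 FPKM. Without shYB1 replicate 1, its lowest shYB1 library, CDC25A passed at a log2 fold change of 0.40 (limma adjusted p = 0.0151), and WEE1 passed at 0.21 (limma adjusted p = 0.0255). CKS2 and CKS1B, small subunits that bind CDKs, were the most abundant of the 60 members. CKS2 was at 248 ± 11.8 and 244 ± 6.90 FPKM and CKS1B at 104 ± 4.22 and 105 ± 0.822 FPKM, and the 95% intervals of the log2 difference ran from −0.11 to 0.07 and from −0.06 to 0.10.

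Transcription factors of the cycle included the member with the largest change. Of 10 factors, 4 rose (E2F1, E2F7, RB1 and FOXM1) and 0 fell, against 18.7% and 6.93% of all genes tested. Under median-of-ratios scaling E2F1 was not called and 3 were higher, beside 11.2% of all genes tested. E2F7 (chr12:77021247-77065580, minus strand), an atypical E2F that represses E2F targets, was at 8.08, 8.43 and 8.11 FPKM in vector and 10.8, 11.3 and 10.1 FPKM in shYB1. The lowest shYB1 library was well above the highest vector library. The log2 fold change was 0.38 ± 0.054 (SE; limma adjusted p = 0.000874), a rise of 30.7% in mean FPKM. E2F8, the other atypical E2F, was at 3.26 ± 0.208 and 3.01 ± 0.405 FPKM (log2 fold change −0.12, limma adjusted p = 0.411).

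Activator E2Fs varied among themselves. E2F1 was at 12.7 ± 0.300 and 14.5 ± 1.24 FPKM (log2 fold change 0.19, limma adjusted p = 0.0423), with shYB1 replicate 2 just above the vector range. The E2F1 call was made in 6 of 13 alternative settings and was lost in 5 of the 6 settings that leave out a library, with adjusted p from limma between 0.0762 without vector replicate 1 and 0.139 without shYB1 replicate 1. It was 0.0823 without vector replicate 2, 0.0996 without vector replicate 3 and 0.127 without shYB1 replicate 3. E2F2 was at 2.74 ± 0.355 and 2.71 ± 0.0588 FPKM and E2F3 at 2.86 ± 0.0544 and 3.06 ± 0.115 FPKM.

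Among the pocket proteins, RB1 rose from 17.2 ± 0.188 to 19.5 ± 0.490 FPKM (log2 fold change 0.18, limma adjusted p = 0.00883). Its relatives RBL1 (p107) and RBL2 (p130) did not pass. RBL1 was at 3.65 ± 0.162 and 4.25 ± 0.297 FPKM (limma adjusted p = 0.0534), and it passed without shYB1 replicate 2 at a log2 fold change of 0.27 (limma adjusted p = 0.0382). RBL2 was at 18.0 ± 0.404 and 17.4 ± 0.712 FPKM. FOXM1, the forkhead activator of mitotic genes, rose from 34.8 ± 1.60 to 39.4 ± 0.630 FPKM (log2 fold change 0.18, limma adjusted p = 0.0098), and 15.9% of its exon bases overlap ITFG2 on the opposite strand. MYBL2 (B-MYB), which works with FOXM1 on the MuvB complex, was at 46.1 ± 1.504 and 46.7 ± 2.04 FPKM.

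Mitotic kinases, checkpoint proteins and regulators of anaphase formed the largest group, and 6 of 13 rose (AURKA, PLK1, BUB1, MAD2L1, CDC20 and BIRC5) with 0 lower. The share that rose was 46.2%, against 18.7% of all genes tested. The same 6 were higher after median-of-ratios scaling, where TTK was lower. BUB1 (chr2:110637698-110678114, minus strand), a kinetochore kinase of the spindle checkpoint, was at 20.8, 20.8 and 20.3 FPKM in vector and 25.9, 23.9 and 24.3 FPKM in shYB1. The vector libraries were nearly equal and all lay below the shYB1 libraries. Its log2 fold change was 0.26 ± 0.042 (SE; limma adjusted p = 0.00178). CDC20, the activator of the anaphase-promoting complex on which the checkpoint acts, rose from 77.6 ± 3.74 to 89.5 ± 3.34 FPKM (log2 fold change 0.21, limma adjusted p = 0.00619). Of the 50-base words of CDC20 transcripts, 7.68% are shared with its pseudogene CDC20P1. MAD2L1, which holds CDC20 inactive in the checkpoint, rose from 33.2 ± 0.873 to 38.0 ± 1.38 FPKM (log2 fold change 0.19, limma adjusted p = 0.0067).

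AURKA, the spindle pole kinase, rose from 19.4 ± 0.595 to 22.2 ± 0.372 FPKM (log2 fold change 0.19, limma adjusted p = 0.00705). AURKB, the chromosomal passenger kinase, was at 10.4 ± 0.481 and 10.3 ± 0.845 FPKM, with a 95% interval of the log2 difference from −0.15 to 0.14. BIRC5 (survivin), which sits in the same complex as AURKB, rose from 36.6 ± 0.703 to 41.3 ± 1.41 FPKM (log2 fold change 0.17, limma adjusted p = 0.00787). PLK1, a kinase of mitotic entry and exit, rose from 40 ± 2.25 to 45.7 ± 1.70 FPKM (log2 fold change 0.19, limma adjusted p = 0.0131). Without shYB1 replicate 2, the highest library, PLK1 had a log2 fold change of 0.16 and a limma adjusted p of 0.0543. PLK1 shares 11.6% of its exon bases with AC008870.3 on the opposite strand.

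Other checkpoint and anaphase members did not pass. TTK (MPS1), the kinase at the head of the checkpoint, was at 9.75 ± 0.122 and 8.84 ± 0.474 FPKM, with every shYB1 library below every vector library (log2 fold change −0.14, limma adjusted p = 0.0714). Under median-of-ratios scaling TTK passed at −0.20 (limma adjusted p = 0.0213), and it passed without shYB1 replicate 2 at −0.18 (limma adjusted p = 0.044). BUB1B (BUBR1) was at 16.1 ± 0.176 and 16.2 ± 0.176 FPKM, so that the 2 related checkpoint kinases BUB1 and BUB1B had different values, although the difference between them was not tested. BUB3, their binding partner, was at 27.8 ± 0.318 and 29.1 ± 1.67 FPKM. NEK2, a centrosome kinase, was at 15.3 ± 0.474 and 16.1 ± 0.513 FPKM. PTTG1 (securin) was at 41.2 ± 1.38 and 42.8 ± 1.12 FPKM, and ESPL1, the separase that securin restrains, was at 9.33 ± 0.275 and 10.1 ± 0.426 FPKM.

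In the group of centromere, kinesin and spindle proteins, 4 of 9 rose (CENPF, KIF11, TPX2 and PRC1) and 0 fell. The share that rose was 44.4%, against 18.7% of all genes tested. TPX2 alone was higher under median-of-ratios scaling as well, beside 11.2% of all genes tested. TPX2 (chr20:31739271-31801805, plus strand), which activates AURKA on spindle microtubules, was at 53.0, 55.0 and 56.5 FPKM in vector and 64.7, 63.6 and 60.5 FPKM in shYB1. The ranges did not overlap. The log2 fold change was 0.20 ± 0.039 (SE; limma adjusted p = 0.00463). KIF11 (Eg5), the motor that pushes spindle poles apart, rose from 12.7 ± 0.576 to 14.7 ± 0.589 FPKM (log2 fold change 0.21, limma adjusted p = 0.0134). Without shYB1 replicate 1 the limma adjusted p of KIF11 was 0.0534. CENPF, a kinetochore protein of G2 and mitosis, rose from 25.2 ± 0.274 to 28.1 ± 1.26 FPKM (log2 fold change 0.15, limma adjusted p = 0.0229), with a limma adjusted p of 0.0639 without vector replicate 1 and 0.0874 without shYB1 replicate 1. PRC1, which bundles the microtubules of the central spindle, rose from 37.7 ± 0.296 to 41.5 ± 0.690 FPKM (log2 fold change 0.14, limma adjusted p = 0.0117). PRC1 values are uncertain, since 57.6% of its exon bases overlap the annotated gene AC068831.7 on the same strand and 50.7% of its 50-base words are shared with it.

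The other members of this group did not pass the test. KIF20A, a motor of cytokinesis, was at 22.7 ± 0.814 and 20.8 ± 1.001 FPKM, with every shYB1 library below every vector library (log2 fold change −0.13, limma adjusted p = 0.0708). It passed after median-of-ratios scaling at −0.18 (limma adjusted p = 0.018) and without shYB1 replicate 2 at −0.17 (limma adjusted p = 0.0423). KIF23, which works beside PRC1 and KIF20A in the central spindle, was at 14.7 ± 0.376 and 15.3 ± 0.329 FPKM, and KIF2C, a depolymerase of kinetochore microtubules, at 28.4 ± 0.333 and 29.4 ± 0.436 FPKM. CENPA, the histone H3 variant of centromeres, was at 31.97 ± 0.410 and 33.9 ± 1.93 FPKM, and CENPE, a kinetochore kinesin, at 4.68 ± 0.312 and 4.93 ± 0.119 FPKM.

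Neither of the 2 proliferation markers passed the test. MKI67 (Ki-67, chr10:128096659-128126385, minus strand), the antigen used to count cycling cells, was at 13.2, 14.1 and 13.3 FPKM in vector and 14.9, 14.8 and 13.8 FPKM in shYB1. The groups overlapped, since shYB1 replicate 3 lay below vector replicate 2. The log2 fold change was 0.10 ± 0.050 with a 95% interval from −0.01 to 0.21 (limma adjusted p = 0.169). TOP2A, the topoisomerase that untangles sister chromatids, was at 79.8 ± 1.05 and 77.9 ± 1.17 FPKM (log2 fold change −0.04, limma adjusted p = 0.435). After median-of-ratios scaling TOP2A passed the test at −0.09 (limma adjusted p = 0.0412).

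**Figure D3:**
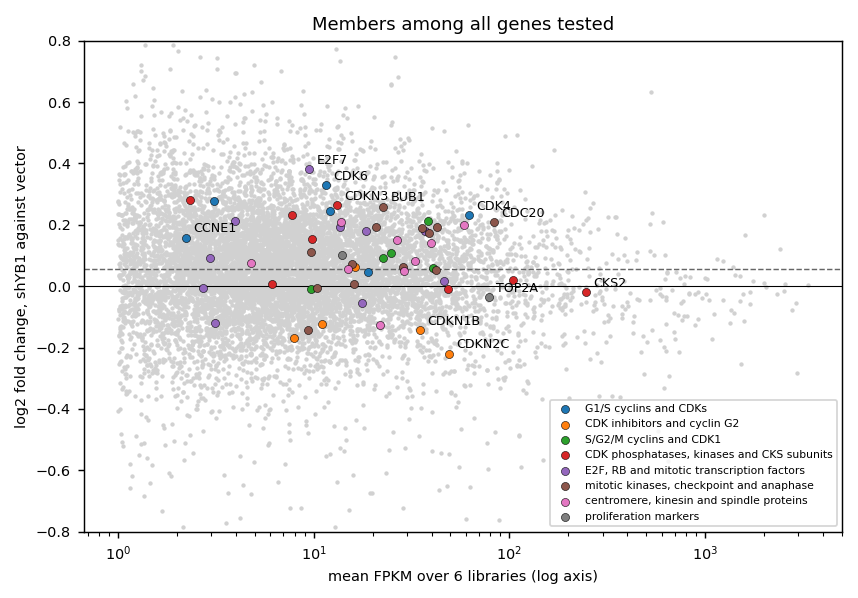
Log2 fold change against mean FPKM over the 6 libraries, on a log axis, for the 58 members tested and, in grey, the 10384 of all genes tested whose change lies within 0.8 on the log2 scale. The members lie between −0.22 and 0.38 and span 2.23 to 246 FPKM, and called members run from 7.73 to 83.6 FPKM.

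Members were expressed above the typical gene. Their median level was 18.0 FPKM over the 6 libraries, beside 7.31 FPKM over all genes tested, and 27 members had a mean over 20 FPKM. The spread between libraries of a group was a median SD of 0.058 on the log2 scale for the members and 0.072 for all genes tested. Called members differed from vector by an absolute log2 fold change of 0.14 to 0.38, with a median of 0.20. For a single gene, an exact permutation test of 3 libraries against 3 cannot give a two-sided p below 0.1. Members without overlap between the groups reached it, E2F7 and CDK6 as well as uncalled ones such as KIF23 and TOP2A. The calls therefore rest on the limma fit across all genes. Summed over the mitotic kinase group, FPKM ran from 353 to 365 in vector and from 388 to 401 in shYB1. Summed over the CDK inhibitors and cyclin G2, it ran from 121 to 129 in vector and from 112 to 113 in shYB1. CDKN2C and CDKN1B, which were called lower, had the highest levels in that group. The sums overlapped between vector and shYB1 for the regulators of CDK phosphorylation and for the proliferation markers. For the other role groups they did not overlap.

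Genes of the cycle outside the 60 members were described from 4 lists. Of 20 other genes of G1 and S phase, 10 rose and 0 fell, against 18.7% and 6.93% of all genes tested. Their median log2 fold change was 0.14, beside 0.055 over all genes tested. Under median-of-ratios scaling 6 of the 20 were higher, beside 11.2% of all genes tested. SLBP, the histone mRNA binding protein, was at 28.4, 28.2 and 32.8 FPKM in vector and 34.4, 37.9 and 36.5 FPKM in shYB1 (log2 fold change 0.29, limma adjusted p = 0.00855). CDCA7, a chromatin protein of S phase, had a log2 fold change of 0.26 (limma adjusted p = 0.0193). The shYB1 libraries of SLBP lay above all its vector libraries.

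Of 26 other genes of G2 and mitosis, 10 rose (38.5%, against 18.7% of all genes tested) and 0 fell, with a median log2 fold change of 0.099. Under median-of-ratios scaling CEP55 alone of the 26 remained higher, beside 11.2% of all genes tested. INCENP was lower there, beside 12.2% of all genes tested. CEP55, an abscission protein, was at 25.2, 24.7 and 24.1 FPKM in vector and 29.2, 29.5 and 28.1 FPKM in shYB1 (log2 fold change 0.23, limma adjusted p = 0.00216). CDCA3, which takes part in mitotic entry, had a log2 fold change of 0.21 (limma adjusted p = 0.00972).

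Of 16 genes of the anaphase-promoting complex, its activators and its inhibitor, 15 were tested, 2 rose (13.3%, against 18.7% of all genes tested) and 0 fell. ANAPC1, the scaffold subunit, had a log2 fold change of 0.34 (limma adjusted p = 0.00726), and FBXO5 (EMI1), the inhibitor, one of 0.17 (limma adjusted p = 0.024). Under median-of-ratios scaling FBXO5 was not called (limma adjusted p = 0.102), which left 1 higher gene. Of 10 MuvB subunits and E2F partners, 9 were tested, 2 rose (22.2%) and 1 fell (11.1%), beside 18.7% and 6.93% of all genes tested. The median log2 fold change was 0.03, or −0.02 under median-of-ratios scaling. E2F4, a repressor E2F of resting cells, was at 16.6, 19.2 and 18.4 FPKM in vector and 21.7, 23.2 and 22.7 FPKM in shYB1 (log2 fold change 0.32, limma adjusted p = 0.00287). LIN37, a MuvB subunit, fell by 0.21 on the log2 scale (limma adjusted p = 0.0288). Its values were 4.50, 4.78 and 4.61 FPKM in vector and 4.03, 4.06 and 3.91 FPKM in shYB1, with no overlap.

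The deposited table annotates 124 genes with the KEGG pathway Cell cycle, of which 36 are members. Of the other 88, 78 were tested, 24 rose and 1 fell, and the median log2 fold change was 0.10. Under median-of-ratios scaling 15 were higher and 2 lower, beside 11.2% and 12.2% of all genes tested. The share that rose was 30.8%, against 18.7% of all genes tested and 34.5% of the members.

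**Figure D4:**
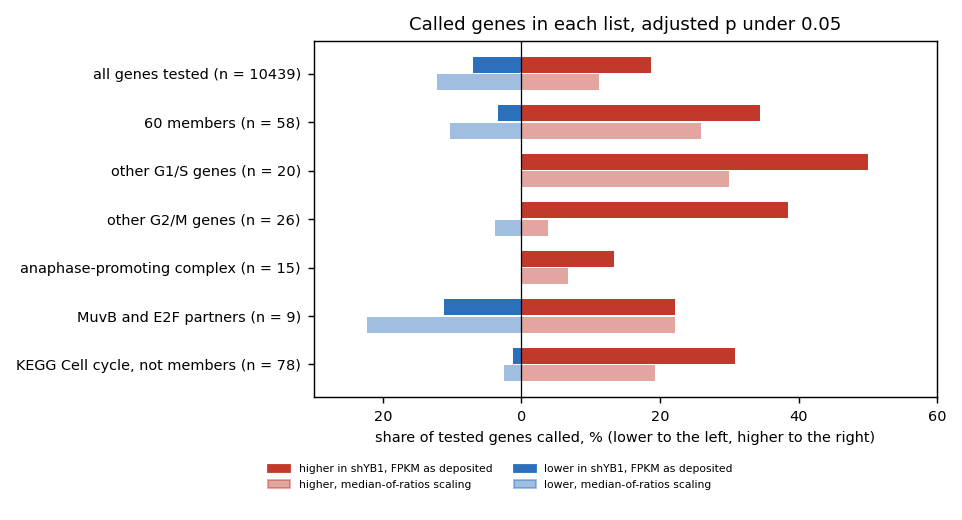
Share of the tested genes of each list that passed the test as higher or lower, in percent, from the deposited FPKM and under median-of-ratios scaling, beside all genes tested. Other G2/M genes drop from 10 higher as deposited to 1 higher after rescaling.

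Promoter letters were counted in the 47 members with an entry in the RefSeq promoter set (GRCh38.p14, 250 bases before to 50 after each start). CCND2, CCNE2, CDK2, CDKN1C, WEE1, PKMYT1, E2F8, FOXM1, AURKA, BUB3, TTK, BIRC5 and TPX2 were not analysed for promoters here. Letters were searched on both strands, and a match is a description of these letters, not a site of binding. CCAAT or ATTGG was present in 30 of 47 members (63.8%), in 34.6% of all 35116 promoters and in 37.2% of the 8665 promoters of tested genes. The CHR letters TTTGAA or TTCAAA were present in 20 members (42.6%), in 15.2% of all promoters and in 9.35% of those of tested genes. Both were present in 18 members (38.3%), against 4.18% of tested genes. A further set of letters, TTCCCGC or GCGGGAA, part of the E2F site, was present in 4 members (8.51%), against 6.55% of all promoters and 10.8% of tested genes.

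The position of the boxes was also counted, a measure chosen after the sequences were seen. A CCAAT box that began 70 to 45 bases before the start was found in 20 members (42.6%) and in 10.4% of tested genes. A pair of boxes 32 or 33 bases apart, as in the CCNB1, CCNB2 and E2F7 sequences above, was found in 5 members (10.6%), the others being CKS1B and NEK2, and in 1.21% of tested genes. These 5 genes included E2F7 and CCNB1, which rose, and CCNB2, CKS1B and NEK2, which were not called.

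The calls were counted with and without each set of letters. Of 30 members with a CCAAT box, 11 rose and 1 fell, with a median log2 fold change of 0.096. Of the 16 tested members without one, 4 rose and 1 fell, with a median of 0.033. Of all genes tested, 18.7% rose and 6.93% fell. Under median-of-ratios scaling E2F1, CENPF, KIF11 and PRC1, all with a CCAAT box, were no longer called, and KIF20A and TOP2A, also with one, were lower. CCND3, CDK4, CDK6 and RB1, the 4 higher members without a box, stayed higher, and CCNG2, also without one, was lower. Over all tested genes the medians were 0.053 with the letters and 0.058 without. Of 20 members with CHR letters 7 rose and 0 fell (median 0.092), and of 26 tested members without them 8 rose and 2 fell (median 0.074). Under median-of-ratios scaling CENPF, KIF11 and PRC1, with CHR letters, were not called and TOP2A, also with them, was lower. Among members without these letters, E2F1 was not called there, and CCNG2 and KIF20A were lower. CDK4, CDK6, CCND3, RB1 and CDKN2C passed the test and held none of the 3 sets of letters. CDKN1B, which fell, held a CCAAT box at −50.

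**Figure D5:**
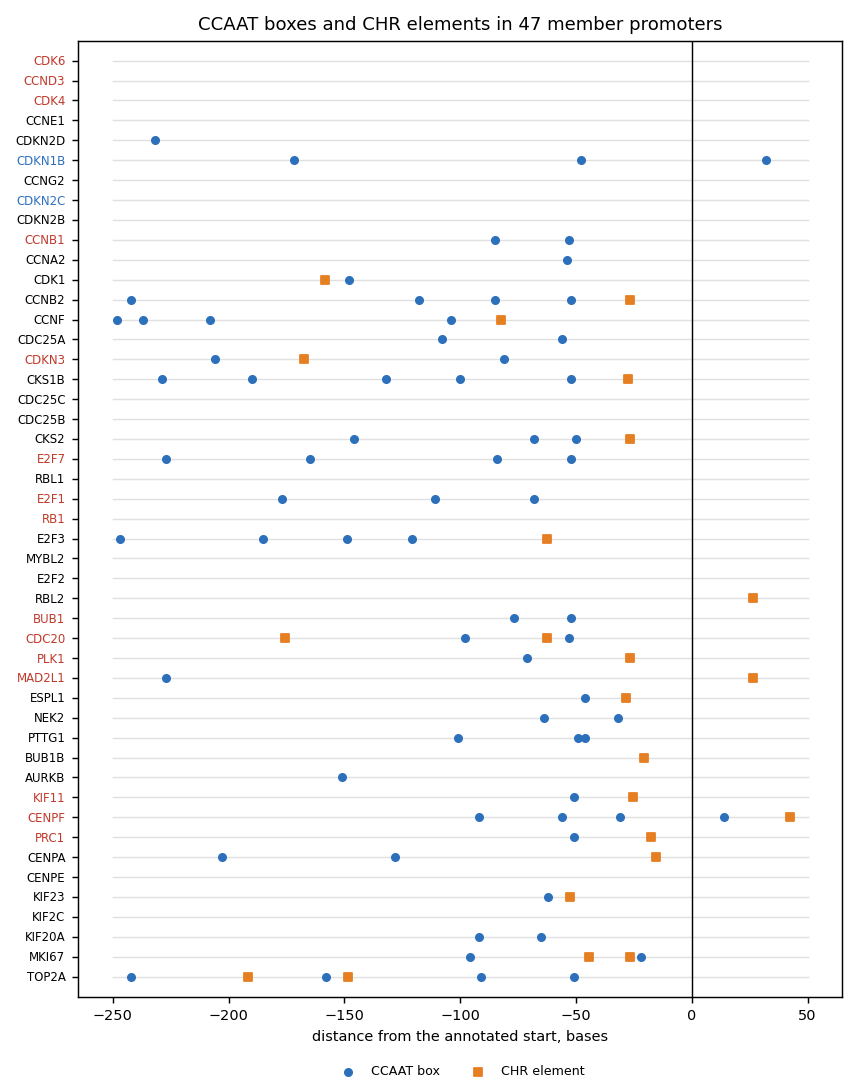
Positions of CCAAT boxes and CHR letters from 250 bases before to 50 bases after the RefSeq start in the 47 members with a promoter entry. Names are in red for higher and blue for lower members, and E2F letters are not drawn. CCAAT boxes gather between 70 and 45 bases before the start, in 20 of the 47 members.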

How the data were processed

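The authors deposited FPKM per gene for 3 vector and 3 shYB1 libraries of 786-O cells, with GO and KEGG annotation. The notes of the submitters on processing name Trimmomatic, HISAT2, Cufflinks, HTSeq, DESeq and GRCh38, without versions or roles, and filters and strandedness are not given in the sources used here. All 6 columns of values were matched to a library by name, and 0 were left over. The FPKM hold no counts, so depth is unknown and no count model or detection limit was used.

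From these values log2(FPKM + 0.1) was taken for genes whose mean was 1 FPKM or more, and shYB1 was tested against vector in R 4.3.3 by limma 3.58.1 (eBayes with trend and robust options, two-sided, Benjamini-Hochberg over all genes tested, threshold 0.05). The step was tested on simulated data. A criterion of an unadjusted p under 0.05 and a fold of 2 follows the methods of the study. Means are given ± SD, log2 fold changes ± SE, and intervals at 95%. Coordinates, exon overlap and shared 50-base words come from GENCODE 29 on GRCh38, and promoters from RefSeq (GRCh38.p14). Tables and plots were made in Python 3.11.15 (pandas 2.3.3, NumPy 2.4.6, SciPy 1.17.1, matplotlib 3.10.9).

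The members and the lists were chosen with earlier results of these data known. Values per library are given for members that passed the test with an absolute log2 fold change of at least 0.25, otherwise for the member with the smallest p in its role, for members below the filter, for the targeted gene and for some genes of the other lists. Up to 2 called genes per list of other cell cycle genes are named, by absolute log2 fold change, and INCENP was named after its values were seen. The ratios between genes, the E2F letters, the spacing of CCAAT boxes and the printed promoters were also chosen after values were seen. Alternatives were a pseudocount of 1 or 0.01, a filter at 5 FPKM or none, median-of-ratios size factors, a common total (TPM), a replicate block, leaving out each library, and a promoter window of 150 bases.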

Additional observations from a re-analysis of the deposited data

How the results depend on the processing

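The count of higher members was within 1.5 times of 20 under every alternative run. It ran from 15 with median-of-ratios size factors to 21 with the replicate block, and leaving out a library gave 17 to 20. Over all genes tested the higher share was 11.2% and 19.9% in those 2 settings and 12.7% to 18.7% with a library left out. It was 9.89% with no filter and 26.0% with a filter at 5 FPKM. The count of lower members was 2, and it was 6 with median-of-ratios size factors, beside 12.2% of all genes tested. It was 3 with a filter at a mean of 5 FPKM (9.53% of all genes) or with the replicate block (7.28%). With a library left out it was 2 to 4, beside 4.95% to 5.83% of all genes. The 4 came without shYB1 replicate 2, where TTK and KIF20A were added. The median log2 fold change of the members was 0.080 to 0.105 with a library left out, and 0 members passed a fold of 2 under any alternative. With the promoter window of 150 bases, 27 members held a CCAAT box and 14 held CHR letters. Of the results under the alternatives, 685 kept their direction and side of the threshold, 21 fell short of it and 15 newly passed it. A further 25 changed sign, in 13 members that were not called in either setting. Under median-of-ratios scaling the change was −0.011 for CDK2, −0.049 for CDC25C, −0.038 for CKS1B, −0.039 for MYBL2, −0.048 for BUB1B, −0.0036 for PTTG1, −0.00038 for KIF23 and −0.0079 for KIF2C, on the log2 scale, all of them positive as deposited. With a library left out it ran from −0.056 to 0.030 for CCNF, −0.026 to 0.0082 for CDC25B, −0.080 to 0.080 for CDC25C, −0.0055 to 0.051 for CKS1B, −0.048 to 0.017 for CKS2, −0.094 to 0.085 for E2F2, −0.017 to 0.044 for MYBL2, −0.061 to 0.056 for AURKB and −0.00079 to 0.013 for BUB1B. The members without a lost call in any of the 13 alternatives were CCND3, CDK4, CDK6, CDKN2C, CCNB1, CDKN3, E2F7, RB1, FOXM1, AURKA, BUB1, MAD2L1, CDC20, BIRC5 and TPX2. The cause of the changed calls was not tested.

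The replicate numbers 1 to 3 occur in both groups, but deviations of libraries with the same number correlated at −0.169 to −0.0082 and those with different numbers at −0.051 to 0.113, so the numbers were not taken as pairs. The replicate block gave 21 higher and 3 lower members, adding CCNE2 and KIF20A, and 2074 higher and 760 lower genes among all tested, against 1956 and 723 without it. Without counts, the precision behind low members such as E2F2 and CCNE1 is limited to the spread of 3 libraries per group.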
